A study of Homo sapiens with 8 samples.

Results

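The loci described here are stretches of the human genome that lie between protein-coding genes and that the array interrogates for long intergenic noncoding RNA (lincRNA). The array carried 6872 probes for 6188 such loci. For 6079 of them the name gives a chromosome, a start, an end and a strand in the hg19 build, and the other 109 carry only the name of an assembled transcript, beginning with TCONS. Loci were selected on their brightness. A locus was kept when its brightest probe was flagged well above background by the scanner software on all 4 arrays of at least 1 of the 2 groups. This left 4939 of the 6188 loci (79.8%), of which 4853 had an interval and 86 were TCONS transcripts.

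LincRNAs are transcribed like messenger RNAs, and many are spliced and polyadenylated, but they have no long open reading frame. They are usually present at lower levels than messenger RNAs and are often restricted to particular cell types. Some act in the nucleus, as scaffolds or at chromatin, and for many no function is known. GATA2 is a zinc-finger transcription factor that binds GATA motifs at enhancers, where noncoding transcripts also arise.

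The study asked which genes respond when GATA2 is silenced in LNCaP, a human prostate cancer line. Both groups were LNCaP cells that received 30 nM of a small interfering RNA in the same lipid reagent and were harvested after 72 hours. The 4 siGATA2 arrays came from cells given an siRNA against GATA2, and the 4 siControl arrays from cells given a scrambled siRNA. The submitters call the 4 samples of each group biological replicates, and the level of a locus is given here as the log2 of its quantile-normalized signal. No untransfected cells were analysed here, and a single siRNA and a single cell line limit the comparison as a model of GATA2 loss.

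The arrays differed in ways that bear on dim transcripts. The spread of the negative-control spots was 4.49 signal units on siControl 1 and 7.26 on siControl 3, against 1.78 to 2.40 on the other 6 arrays. The siGATA2 arrays fell into a pair 1 and 2 and a pair 3 and 4. Among loci well above background on all 8 arrays, the SD of the difference in level was 0.157 within the first pair and 0.154 within the second, but 0.717 to 0.769 between them. In 2248 of these 2653 loci (84.7%) siGATA2 1 and 2 both lay on the same side of siGATA2 3 and 4. SiControl 1 deviated from its group mean in the same direction as siGATA2 1 and 2, with correlations across loci of 0.789 and 0.773. No label states a reason for this likeness. The sample titles carry the letters A, B, E and F for siGATA2 1 to 4. Those of siControl 1 to 4 carry B, D, F and G, and the meaning of the letters is not given. The p-values therefore measure only the spread between these arrays, and they would be too small if each pair came from 1 culture. The probe for GATA2 itself read 12.61, 12.54, 11.57 and 11.40 on siGATA2 arrays 1 to 4 and 11.74, 11.28, 11.09 and 11.29 on siControl arrays 1 to 4. It was therefore not lower on the arrays labelled siGATA2 (log2 difference 0.68, SE 0.31, adjusted p = 0.155 by limma), and directions below are those between arrays as labelled. The study reported much less GATA2 protein by Western blot in LNCaP cells given the siRNA. These arrays measure RNA, not protein, and only the brightest GATA2 probe is given here. The prostate epithelial markers KLK3, KLK2, TMPRSS2, FOLH1, HOXB13, KRT8 and KRT18 were each well above background on all 8 arrays, and KLK3 (log2 difference -1.63, limma adjusted p = 0.0384) and KLK2 (-1.84, 0.00468) were lower on the siGATA2 arrays by at least 2-fold. Of markers of other cell types, 1 of 4 for fibroblasts (levels 2.93 to 9.09), 2 of 3 for endothelium (3.39 to 9.20) and 1 of 3 for leukocytes (6.64 to 8.54) were detected on all 8 arrays. The leukocyte markers CD68 (detected on 7 arrays, 2.00, limma adjusted p = 0.000772) and PTPRC (8 arrays, 0.88, 0.00183) were higher, CD3E was at -0.13 (0.434), and the endothelial VWF was lower (-0.96, 0.00197). The part of these in the results on lincRNA loci was not tested.

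Detection differed between arrays. Between 5029 and 5521 of the 6188 loci were well above background on each siGATA2 array. The siControl arrays gave 3870, 5103, 2737 and 4951, so the noisier arrays 1 and 3 detected the fewest. Of the 4939 loci kept, 2653 were well above background on all 8 arrays, 2284 qualified through the siGATA2 arrays alone and 2 through the siControl arrays alone. Of the 2284, 2122 were also detected on the quieter siControl arrays 2 and 4. The part that array noise plays in this imbalance was not tested.

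**Figure D1:**
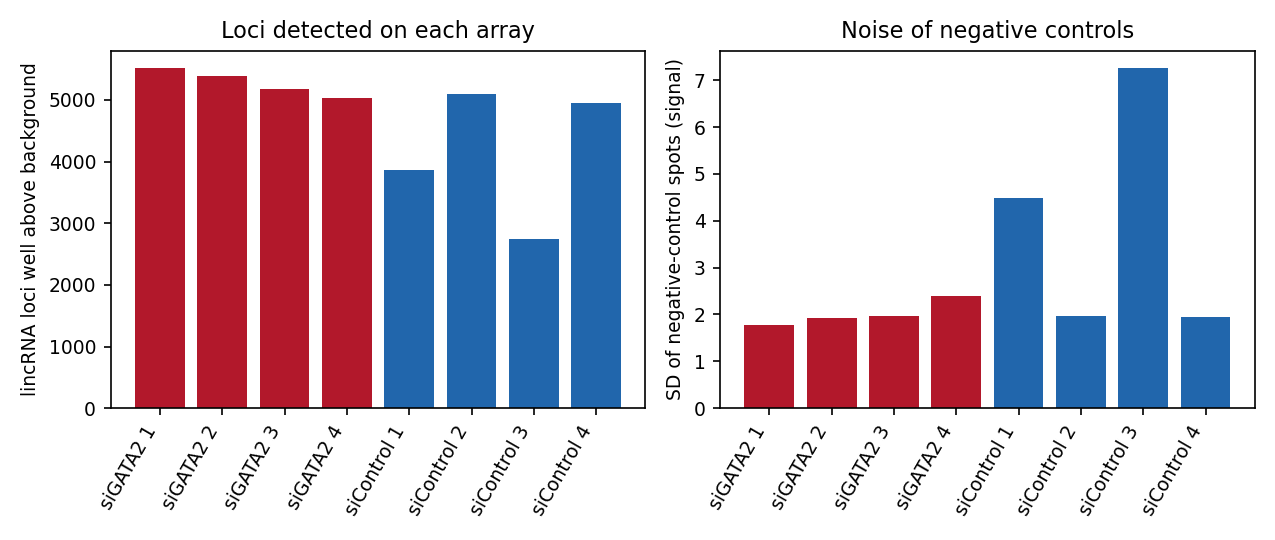
Number of lincRNA loci well above background on each array (left bars) and the SD of the negative-control spots on the same array, in signal units (right bars), siGATA2 arrays in red and siControl arrays in blue. SiControl 1 and 3 have the widest negative controls, 4.49 and 7.26, and the fewest detected loci, 3870 and 2737.

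The loci kept had a median level of 6.98 and ran from 3.14 to 18.23. Those detected on all 8 arrays had a median of 8.58, and those that qualified through siGATA2 arrays alone had a median of 5.46. Just outside the rule lay 225 loci detected on 3 of the 4 siGATA2 arrays, with a median of 3.85, while 524 loci were detected on no array. Strand made little difference to detection, since 2401 of 2984 forward loci (80.5%) and 2452 of 3095 reverse loci (79.2%) were kept. The intervals kept had a median length of 12176 bases, and those not kept 13451. Many intervals are alternative versions of one another, and the 4853 kept merged into 3417 stretches per strand, the largest holding 23 loci.

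Few loci changed. A locus was called when its difference reached 2-fold with a limma adjusted p under 0.05, adjusted over all 28876 genes and loci tested. Of the 4939 loci, 116 were lower on the siGATA2 arrays (2.35%) and 93 were higher (1.88%). Over everything tested, 7.09% was lower and 4.51% higher by the same rule. The arrays of the 2 groups did not overlap in 927 loci (18.8%), against 32.5% of everything tested. The median log2 fold change was 0.14 over the loci and 0.09 over everything tested. Scaled to spike-in probes instead, with a median of -0.43 over everything tested, the loci had a median of -0.31, with 82 lower and 9 higher. Lower loci made up 55.5% of the loci called, 90.1% with the spike-in scaling and 38.9% with 75th-percentile scaling.

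Because a locus kept through the siGATA2 arrays alone was chosen on its signal there, the loci seen on all 8 arrays are given separately. Among those 2653, 108 were lower (4.07%) and 29 higher (1.09%), and the median log2 fold change was 0.08. Among the 2286 others, 8 were lower and 64 higher, so most of the rises came from loci that missed the detection mark on at least 1 siControl array. Leaving out siControl 1 alone raised the number of higher loci to 168, and with the siGATA2 pairs averaged into 2 samples, an alternative chosen after seeing the data, 86 lower and 51 higher loci were called.

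The called loci kept their direction inside each set of like arrays. All 116 lower loci were lower, and all 93 higher loci were higher, both for siGATA2 1 and 2 against siControl 1 and for siGATA2 3 and 4 against siControl 2, 3 and 4. The difference reached 2-fold for 98 of the lower loci in the first set and for 95 in the second, and for 78 and 81 of the higher loci. Directions also held within each row of the slide, row 1 holding 3 siGATA2 arrays and 1 siControl array and row 2 the reverse. These directions describe loci already called on the same arrays and are no separate evidence.

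Counts for the other features that met the same detection rule, genes with a symbol or an accession, stand beside these as a description. Of those 21058 features, 8.35% were lower and 5.59% higher, at a median level of 9.54. The shares also differed at like brightness, taken over all 5523 loci and all other features fitted, whether or not they met the detection rule. Between levels 6 and 9, 2.49% of 2213 loci were lower, against 9.99% of 5517 other features. Between 9 and 12 the shares lower were 4.31% of 859 loci and 10.7% of 6530 others, and from 12 upward 4.67% of 257 and 7.43% of 5104. The higher calls showed the same order, with 2.26% against 6.24% between 6 and 9, 1.40% against 5.82% between 9 and 12, and 0.389% against 5.04% from 12 upward. Overlapping loci are not independent of one another, and these shares were not tested against each other.

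**Figure D2:**
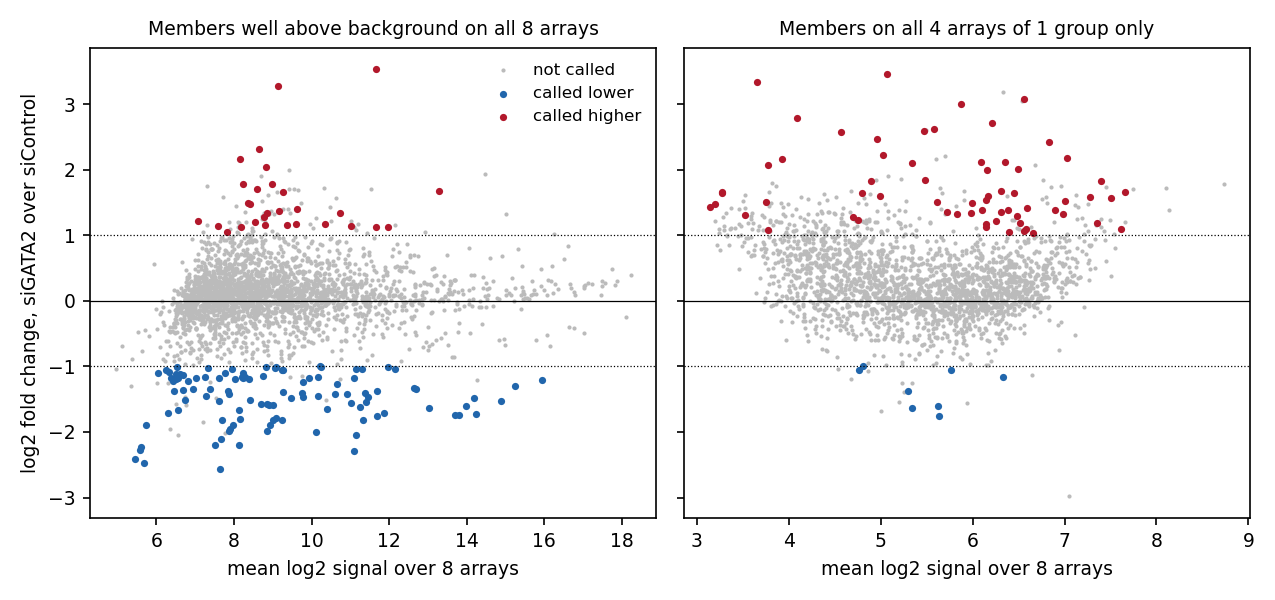
Log2 fold change of each locus, siGATA2 over siControl, against its mean log2 signal over the 8 arrays, for the 2653 loci well above background on all 8 arrays (left) and the 2286 others (right), with called loci in blue (lower) and red (higher) and dotted lines at 2-fold. The left cloud holds 108 lower and 29 higher loci, and the right cloud 8 lower and 64 higher.

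The lower loci had a median log2 fold change of -1.41, and 11 of them fell at least 4-fold, all on loci detected on all 8 arrays. The deepest fall was at chr4:53578989-53586518 on the forward strand. Its level was 6.21, 6.05, 6.61 and 6.51 on siGATA2 arrays 1 to 4 and 8.87, 8.94, 8.96 and 8.89 on siControl arrays 1 to 4. All 4 siGATA2 arrays lay below all 4 siControl arrays, which were nearly level with each other, and the log2 fold change was -2.57 (SE 0.14, limma adjusted p = 2.35e-05). A neighbour on the same strand, chr4:53578686-53579392, read 10.80, 10.46, 9.23 and 9.27 against 12.62, 12.17, 12.05 and 12.08. It was again lower on every siGATA2 array, more so on arrays 3 and 4 (log2 fold change -2.29, SE 0.38, limma adjusted p = 0.0032).

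The second-deepest fall was at chr15:49021279-49022041 on the reverse strand. Its level was 4.00, 4.28, 4.44 and 5.08 on the siGATA2 arrays and 5.91, 6.55, 8.67 and 6.57 on the siControl arrays. The groups did not overlap, but the noisy siControl 3 stood well above the other 3 (log2 fold change -2.48, SE 0.57, limma adjusted p = 0.0147). Its adjusted p was 0.100 with the siGATA2 pairs averaged and 0.0704 with the slide row as a block.

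The remaining 3 of the 6 deepest falls overlapped each other on the reverse strand of chromosome 8. At chr8:128301946-128433208 the siGATA2 arrays read 4.47, 3.79, 4.36 and 4.29 and the siControl arrays 5.78, 7.04, 6.75 and 7.03 (log2 fold change -2.42, SE 0.30, limma adjusted p = 0.000794). The intervals chr8:128301935-128324351 and chr8:128301944-128335397 fell by 2.28 and 2.22 on the log2 scale, and another, chr8:128301923-128335401, by 1.89. SiControl 1 was the lowest control array in all 4, yet lay above every siGATA2 array. The other 6 loci kept in the same merged stretch of 10 were not called. With normexp background correction the 3 deepest had log2 fold changes of -0.98, -0.93 and -0.94, short of 2-fold.

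The higher loci had a median log2 fold change of 1.51. Of the 24 that rose at least 4-fold, 5 were detected on all 8 arrays. The steepest rise among these was at chr11:65190190-65214674 on the forward strand. Its level was 14.98, 14.60, 11.98 and 12.11 on siGATA2 arrays 1 to 4 and 11.68, 9.28, 9.29 and 9.28 on siControl arrays 1 to 4. SiGATA2 1 and 2 stood above siGATA2 3 and 4, and siControl 1 stood above the other controls and only just below the lowest siGATA2 array. The log2 fold change was 3.53 (SE 0.88, limma adjusted p = 0.0202). Within the sets of like arrays it was 3.11 for siGATA2 1 and 2 against siControl 1 and 2.76 for siGATA2 3 and 4 against the other controls. The adjusted p rose to 0.0830 with the siGATA2 pairs averaged, and the call was lost, on its adjusted p, in 6 of 24 alternatives, among them those without siGATA2 2 or without siControl 2, 3 or 4.

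A shorter interval inside it, chr11:65202405-65204229, showed the same arrangement of arrays. It read 12.40, 12.15, 9.44 and 9.13 against 8.93, 7.05, 6.87 and 7.17 (log2 fold change 3.27, SE 0.87, limma adjusted p = 0.0268). Its call was lost in 10 of 24 alternatives, with adjusted p of 0.0877 with the siGATA2 pairs averaged, 0.0599 by the methods' t-test after Benjamini-Hochberg adjustment, 0.113 with the slide row as a block and 0.0625 to 0.0712 without siGATA2 1 or 2 or without siControl 2, 3 or 4. From general knowledge, this stretch of hg19 is where NEAT1, the RNA that builds nuclear paraspeckles, is transcribed. The array's own NEAT1 probe, read here only for comparison, gave 18.14, 18.05, 16.24 and 16.28 against 16.41, 14.85, 14.76 and 14.78 (log2 fold change 1.98, SE 0.59, limma adjusted p = 0.0417). No hg19 annotation was used here to check the overlap.

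The other 4 of the 6 steepest rises among loci detected on all 8 arrays with groups that did not overlap lay elsewhere. The called rise of 2.16 at chr11:70617049-70619745 on the reverse strand, whose groups overlapped, is not in this ranking. The reverse-strand locus chr15:58538381-58623829 read 8.76, 9.20, 10.57 and 10.66 against 6.68, 7.83, 7.57 and 7.81, with siGATA2 3 and 4 the highest (log2 fold change 2.32, SE 0.49, limma adjusted p = 0.0101). TCONS_l2_00020391, whose name gives no position, read 10.44, 10.51, 9.17 and 9.23 against 8.42, 7.72, 7.38 and 7.65 (log2 fold change 2.04, SE 0.39, limma adjusted p = 0.0059). The forward locus chr8:590406-605477 read 8.17, 8.55, 9.88 and 9.88 against 6.42, 8.02, 7.08 and 7.84, its groups just apart (log2 fold change 1.78, SE 0.51, limma adjusted p = 0.0367, and 0.126 with the siGATA2 pairs averaged). Its call was lost in 10 of 24 alternatives, among them the methods' t-test and the slide row as a block. The sixth rise was the most even. At chr6:143333307-143360582 on the reverse strand the siGATA2 arrays read 9.94, 9.72, 9.94 and 9.87 and the siControl arrays 8.38, 8.12, 7.80 and 8.07 (log2 fold change 1.78, SE 0.14, limma adjusted p = 9.05e-05). With spike-in scaling the adjusted p of TCONS_l2_00020391 was 0.175 and that of the chromosome 6 locus 0.195, and without siControl 1 and 3 that of the chromosome 15 locus was 0.0662.

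**Figure D3:**
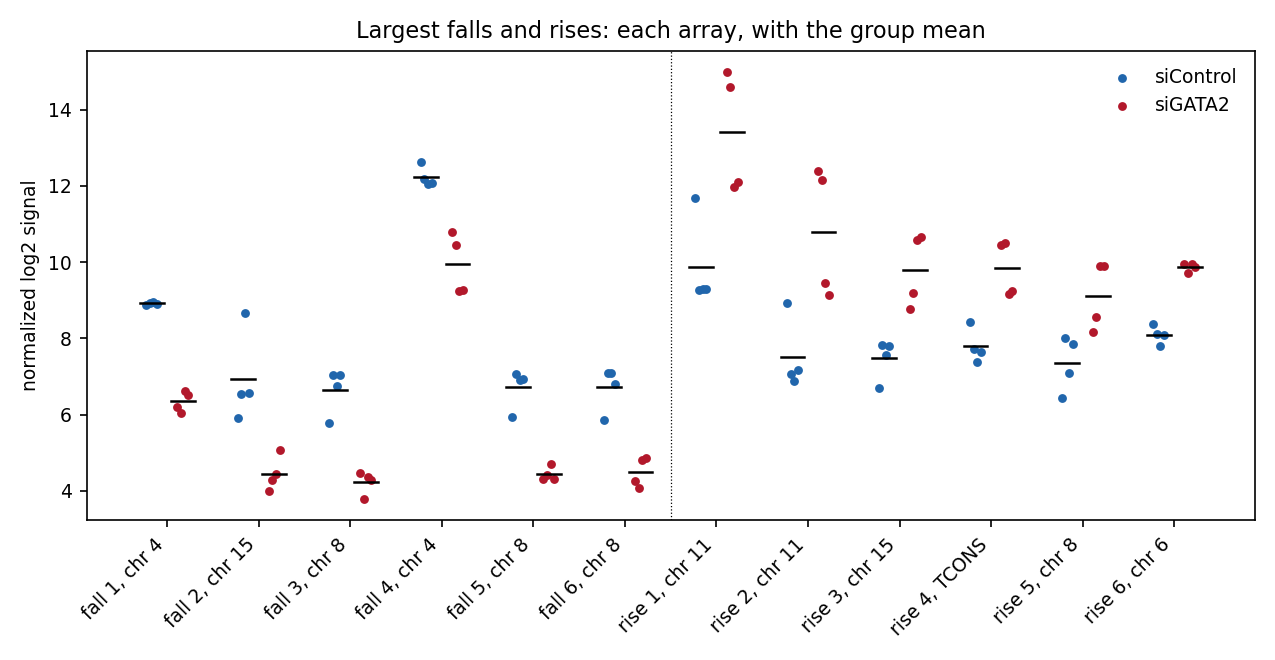
Normalized log2 signal of the 6 deepest falls and the 6 steepest rises among called loci detected on all 8 arrays with groups that do not overlap, in the order described in the text, with a point for each siControl array (blue) and siGATA2 array (red) and a bar at each group mean. The siControl points of the first fall lie between 8.87 and 8.96, whereas the first rise has siGATA2 points from 11.98 to 14.98 and a siControl 1 point at 11.68 above the other controls.

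Called loci often lay beside each other, and many neighbouring intervals overlap. Among loci on the same strand that overlap and were detected on all 8 arrays, 530 neighbouring pairs had log2 fold changes correlated at r = 0.57 across pairs. The 115 lower loci with an interval lay in 87 merged stretches and the 90 higher loci in 74, and no stretch held calls in both directions. Joining calls in 1 direction with gaps of at most 100 kb gave 13 runs of lower loci, with 46 loci, and 16 runs of higher loci, with 41.

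The densest run held 10 lower loci, 7 forward and 3 reverse, between 86386083 and 86388438 on chromosome 6. The called loci had log2 fold changes from -1.38 to -1.16. At chr6:86386083-86388435 on the forward strand the siGATA2 arrays read 5.87, 6.05, 6.12 and 6.03 and the siControl arrays 7.49, 7.40, 7.41 and 7.20 (log2 fold change -1.36, SE 0.11, limma adjusted p = 9.14e-05). On the reverse strand, chr6:86387519-86388438 read 9.46, 9.39, 9.20 and 9.31 against 10.84, 10.39, 10.44 and 10.43 (log2 fold change -1.18, SE 0.13, limma adjusted p = 0.00045). The 4 other loci kept wholly inside this span were not called. They were the reverse partner of the first interval, with the same start and end, at 0.24 (limma adjusted p = 0.230), chr6:86386850-86387907 forward at -2.04 (0.0726), chr6:86386806-86387736 forward at -0.84 (0.0251, short of 2-fold) and chr6:86387044-86387458 reverse at -0.32 (0.591). The forward and reverse loci of chr6:86381806-86396056, which reach past both ends of the span, were at -0.02 (limma adjusted p = 0.961) and 0.12 (0.562). With the siGATA2 pairs averaged 6 of the 10 calls stayed under the adjusted p of 0.05, and with spike-in scaling 2 did, both on the reverse strand. Leaving out any single array other than siGATA2 1 took 2 of the 10 over it, chr6:86386847-86387908 and chr6:86387046-86387917. With normexp background correction the 7 forward calls had log2 fold changes of -0.81 to -0.61 and chr6:86386847-86387908 reverse had -0.98, all short of 2-fold.

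The other 7 lower loci named in the run were chr6:86386799-86387711, chr6:86386801-86387731, chr6:86386801-86387745, chr6:86386801-86387887, chr6:86386813-86387908 and chr6:86387046-86387917 on the forward strand and chr6:86387201-86388404 on the reverse with log2 fold changes between -1.23 and -1.16. The tenth, chr6:86386847-86387908 on the reverse strand, had the largest fold change of the run and the weakest call (log2 fold change -1.38, SE 0.42, limma adjusted p = 0.0465). In it siGATA2 1 and 2 read 8.11 and 7.65 and siGATA2 3 and 4 read 6.42 and 6.47. From general knowledge, SNHG5, a host gene of small nucleolar RNAs, is transcribed from the reverse strand here in hg19. The array's SNHG5 probe read 13.34, 13.20, 12.52 and 12.55 against 14.22, 13.64, 13.70 and 13.57, lower on all siGATA2 arrays but short of 2-fold (log2 fold change -0.88, SE 0.24, limma adjusted p = 0.0307).

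The second run held 9 lower loci on chromosome 4, between 53577368 and 53616143, and took in both chromosome 4 loci of the deepest falls. All 9 loci kept and lying wholly inside this span were called, 4 forward and 5 reverse, with a median log2 fold change of -1.82, and all 9 stayed under the adjusted p of 0.05 in each of the 24 alternatives. Of 2 kept loci that reach past its end, chr4:53608718-53617782 reverse, at -0.98, fell short of 2-fold (limma adjusted p = 0.00269) and chr4:53611978-53617521 forward was at 0.04 (limma adjusted p = 0.866). The forward loci fell by 1.82 to 2.57. Of the reverse loci, the longest, chr4:53577368-53616143, read 9.06, 9.02, 9.10 and 9.22 against 10.59, 11.19, 11.37 and 11.27 (log2 fold change -2.00, SE 0.18, limma adjusted p = 0.000147), and the 4 shorter ones fell by 1.51 to 1.59.

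Among shorter runs of lower loci, 3 reverse loci between 15657202 and 15695627 on chromosome 4 fell by between 1.01 and 2.20, and 3 reverse loci between 54284395 and 54307601 on chromosome 2 fell by between 1.03 and 2.10. The chromosome 4 run lay in a merged stretch of 18 loci of which the other 15 were not called. In that stretch, chr4:15657202-15695627 read 7.09, 6.42, 7.25 and 7.33 against 9.07, 9.29, 9.30 and 9.23.

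The longest run of higher loci held 5 reverse loci on chromosome 9, between 132096359 and 132121810. The most even of them, chr9:132104000-132109743, read 6.99, 7.07, 7.20 and 7.06 on the siGATA2 arrays and 5.78, 5.73, 5.68 and 5.57 on the siControl arrays (log2 fold change 1.39, SE 0.10). The wider difference at chr9:132104133-132109756 was 2.59 (SE 0.17), from 6.34, 6.73, 7.07 and 6.92 against 4.25, 3.98, 4.25 and 4.21. The first was well above background on 3 of the 4 siControl arrays and the other on 2. None of the 5 loci was so on all 4, so all were kept through the siGATA2 arrays, where they are high, and their values are a description. A run of 3 reverse loci between 102179030 and 102199749 on chromosome 8 rose by 2.11 to 2.43, and again none was detected on all 4 siControl arrays. At chr8:102187674-102199749 the values were 7.71, 7.68, 8.44 and 8.36 against 5.41, 5.78, 5.73 and 5.56.

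A run of 3 reverse loci on chromosome 4, between 8357036 and 8359781, was bright and detected on all 8 arrays. Its brightest member, chr4:8359032-8359781, read 14.24, 14.16, 13.99 and 14.07 against 12.95, 12.36, 12.15 and 12.30 (log2 fold change 1.67, SE 0.18, limma adjusted p = 0.000358), and it was the only called rise among loci with a mean level of at least 12.

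The chromosome 11 run around the steepest rise held 3 called loci among 9 kept between 65190190 and 65275174. The third called locus, chr11:65265824-65275174 on the reverse strand, was dim, at 5.74, 5.61, 5.95 and 5.88 against 4.58, 4.07, 4.29 and 3.82, and was detected on 1 siControl array. Of the other 6, chr11:65190199-65214674 forward, which nearly coincides with the steepest rise, had a log2 fold change of only 0.63 (limma adjusted p = 0.206). Its reverse partner was at 0.82 (0.0166), chr11:65190190-65214674 reverse at -0.02 (0.939) and chr11:65272189-65272464 reverse at 0.70 (0.261). The widest differences were 3.05 at chr11:65195730-65196514 forward (limma adjusted p = 0.0519) and 1.93 at chr11:65271755-65272266 reverse (0.0856). In both, siGATA2 1 and 2 and siControl 1 were the high arrays of their groups, the arrangement seen at the steepest rise. The array's probe for MALAT1, a nuclear noncoding RNA transcribed near NEAT1, read 14.88, 14.90, 12.44 and 13.21 against 12.67, 10.28, 10.90 and 10.62 and was arranged likewise (log2 fold change 2.74, SE 0.72, limma adjusted p = 0.0253).

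**Figure D4:**
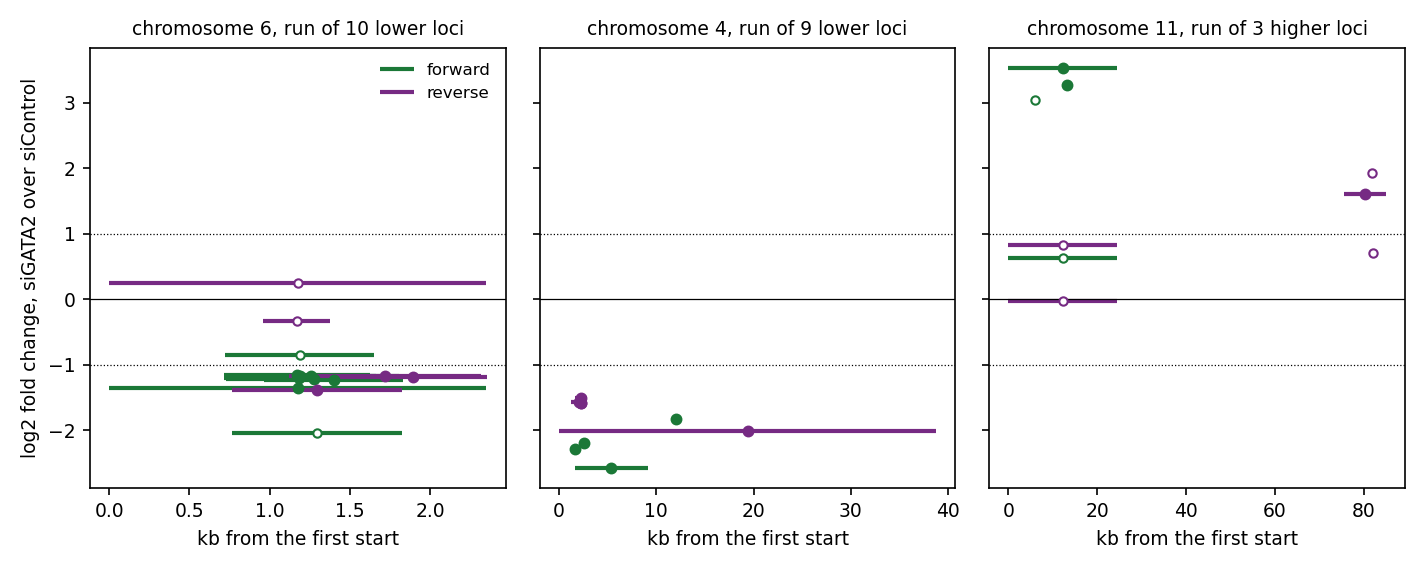
Log2 fold change, siGATA2 over siControl, of every kept locus inside the chromosome 6, chromosome 4 and chromosome 11 runs, drawn as a bar from its start to its end in kb from the first start, forward strand in green and reverse in purple, with filled dots for called loci, open dots for loci not called and dotted lines at 2-fold. Counting loci wholly inside, the chromosome 4 span has 9 called falls among 9 loci on both strands, and the chromosome 6 span 10 among 14.

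By chromosome, lower loci were found on 21 of 23 chromosomes and higher loci on 18. Chromosome 6 had the most lower loci, 21 of 400 kept (5.25%), and chromosome 4 had 15 of 286 (5.24%). Their longest runs supplied 10 of the 21 and 9 of the 15. Chromosome 11 had the most higher loci, 10 of 194 (5.15%), of which 4 reverse loci lay in 1 run between 70525602 and 70719228. In that run chr11:70617049-70619745 read 10.31, 10.22, 8.25 and 8.18 against 8.43, 6.63, 6.66 and 6.61, so siControl 1 lay above siGATA2 3 and 4 and the groups overlapped. Chromosome 1 had 1 lower and 8 higher loci of 366, and chromosomes 18 and 20, with 117 and 72 loci kept, had none called in either direction. The X chromosome had 7 lower loci of 213 and none higher. Forward and reverse loci were called about equally often, with 50 lower and 39 higher of 2401 forward loci and 65 lower and 51 higher of 2452 reverse loci.

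For 1828 intervals the array held a probe on each strand, so the signal named for each strand of an interval can be read separately. The 2 strands have different probes. Where these lie within an interval was not analysed, so they need not read the same place. Both strands were kept for 1320 of them, 1 strand for 351 and neither for 157. The log2 fold changes of the 2 strands were almost unrelated across the 435 intervals with both strands detected on all 8 arrays (Pearson r = 0.08, Spearman rho = 0.06, as a description, since all intervals come from the same arrays). By comparison, other probes for the same locus and strand tracked its brightest probe at r = 0.78 across 201 probes. Of the 1320 intervals with both strands kept, 1 was lower on both strands and 1 higher on both, whereas 43 were lower and 36 higher on a single strand. Intervals with opposite calls count in both the 43 and the 36, and these counts were not tested. The interval lower on both strands was chr2:174685404-174756679, at -1.11 forward and -1.20 reverse, and the interval higher on both was chr4:25163077-25179402, at 1.28 and 2.11.

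Opposite calls on the 2 strands were made at 2 intervals. The first of these, with the wider difference between strands, was chr16:24474974-24486974. Its forward locus read 10.50, 10.43, 10.36 and 10.43 on the siGATA2 arrays and 12.30, 12.16, 12.24 and 12.29 on the siControl arrays (log2 fold change -1.82, SE 0.09, limma adjusted p = 1.91e-05). Its reverse locus read 9.61, 9.37, 9.61 and 9.55 against 8.36, 8.10, 8.05 and 8.28 (log2 fold change 1.34, SE 0.11, limma adjusted p = 0.000127). With spike-in scaling the reverse difference was 0.82 and was not called (limma adjusted p = 0.441). Neither strand's groups overlapped, and the arrays within each group were close, including siControl 1 and 3. This was the largest difference between strands among the 435 intervals. The other was the short interval chr7:105564174-105564567, named after its values were seen. Its bright reverse locus read 12.32, 12.25, 12.09 and 12.17 against 13.91, 13.82, 13.83 and 13.82 (log2 fold change -1.64, SE 0.10, limma adjusted p = 2.60e-05). Its forward locus was far dimmer and was well above background on 3 siControl arrays, reading 7.73, 7.66, 7.61 and 7.60 against 6.48, 6.12, 6.29 and 6.43 (log2 fold change 1.32, SE 0.11). The groups were apart on both strands, in opposite directions, but the forward locus was kept through the siGATA2 arrays, where it is high, and its value is a description. The merged reverse stretch around this interval held 4 kept loci, of which 1 was called, with log2 fold changes up to 0.41. The merged forward stretch held 5, of which 2 were called higher.

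Among the 435, the next widest difference was at chr8:38616218-38630243. Its reverse locus read 8.05, 8.06, 8.02 and 8.21 against 10.05, 9.76, 9.81 and 10.01 (log2 fold change -1.82, SE 0.11, limma adjusted p = 2.88e-05). Its forward locus read 8.69, 8.79, 8.03 and 7.96 against 7.83, 7.44, 7.35 and 7.49, a difference of 0.84 that did not reach 2-fold (limma adjusted p = 0.0274). At chr3:114043485-114052926 the forward locus was lower, at 11.15, 11.03, 10.90 and 11.01 against 12.82, 12.61, 12.74 and 12.75 (log2 fold change -1.71, SE 0.10, limma adjusted p = 2.79e-05). Its reverse locus read 10.02, 9.96, 9.85 and 9.88 against 9.68, 9.06, 9.15 and 9.17 (log2 fold change 0.66, limma adjusted p = 0.0147). The merged forward stretch there held 2 kept loci, and the locus not called had a log2 fold change of 0.77, against the fall. The merged reverse stretch also held 2, and chr3:114043485-114052885, detected on 3 siControl arrays, was called higher at 1.39. These 3 intervals were picked for the size of the strand difference, which is therefore a description.

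**Figure D5:**
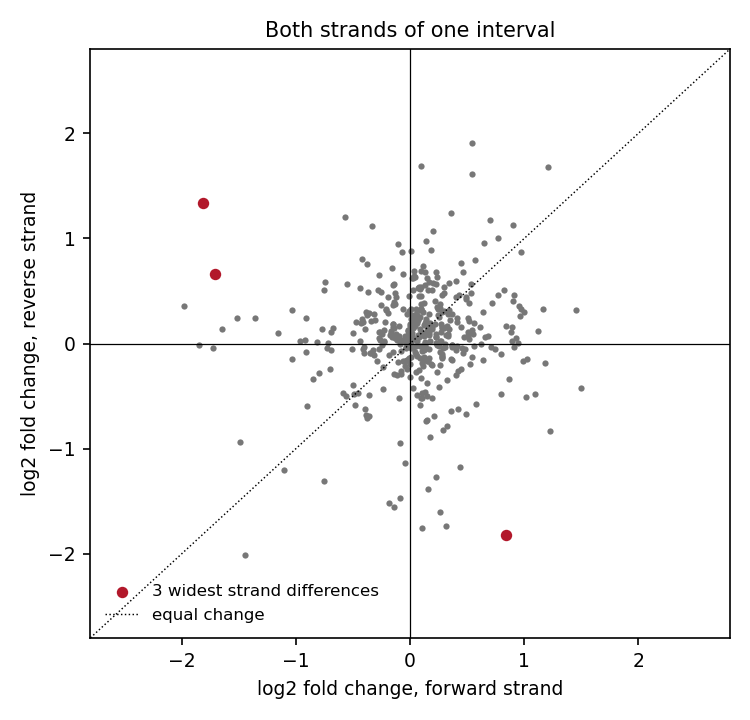
Log2 fold change, siGATA2 over siControl, of the reverse-strand locus against that of the forward-strand locus for the 435 intervals with both strands well above background on all 8 arrays, with the 3 widest differences in red and a dotted line where both would be equal. The cloud shows no slope (r = 0.08).

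No locus was detected on all 4 siControl arrays and on no siGATA2 array. The reverse occurred at 42 loci, of which 11 were called higher, and for 2 of these the fold stayed above 2 when each siControl array was raised to the lowest signal that counted as well above background on it, or left at its own value where that was higher. At chr4:74151603-74153484 on the forward strand the siGATA2 arrays read 7.10, 7.37, 5.23 and 4.86, a mean of 6.14, and the siControl arrays, not well above background, 5.13, 3.26, 3.95 and 3.32, a measured mean of 3.91. With that replacement the group mean was 2.52-fold higher on the siGATA2 arrays, but siControl 1 lay above siGATA2 4, so the groups overlapped. The call was lost in 13 of 22 alternatives, the methods' t-test among them. At chr4:109412651-109519913, also forward, they read 6.85, 6.63, 4.85 and 5.08, a mean of 5.85, against 4.39, 2.26, 3.67 and 2.81, a measured mean of 3.28. The same replacement gave a 2.06-fold higher mean, with groups that did not overlap, and the call was lost in 6 of 22 alternatives. Signals not flagged well above background reached 6.55, 5.59, 8.55 and 6.53 on siControl arrays 1 to 4, so these folds are no strict lower bounds. Both loci were kept through the siGATA2 arrays alone, so the folds are a description with no test. In both loci siGATA2 1 and 2 were the bright pair, and the detection mark on siControl 1 and 3 was the highest of the 8 arrays, at 5.32 and 6.47.

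The brightest loci did not pass the call. The 5 with the highest mean level were chr3:106526585-106630535 on the reverse strand, chr18:5232477-5246926 reverse, chr9:138785504-138809329 reverse, chr2:20722919-20803669 forward and chr3:106619835-106630535 reverse. The first read 18.66, 18.66, 18.16 and 18.23 on the siGATA2 arrays and 18.32, 17.89, 18.04 and 17.87 on the siControl arrays (log2 fold change 0.40, SE 0.17, limma adjusted p = 0.129). The other 4 had log2 fold changes of -0.24, 0.30, 0.24 and 0.48, with limma adjusted p between 0.0932 and 0.368. No spot was saturated on any array.

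Where a locus had more than 1 probe, the probes mostly gave the same answer. The array held 1 probe for 5664 loci and 2 or more for 524. Among probes other than the brightest, 201 probes of 198 kept loci were well above background on all 8 arrays, and their log2 fold change differed from that of the brightest by a median of 0.20. All 8 such probes of lower loci were themselves called lower, and all 4 of higher loci were called higher.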

How the data were processed

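Total RNA from 8 LNCaP samples was labelled with Cy3 and hybridised to 1-colour Agilent arrays of 1 slide, scanned together. The deposited scanner files, made by the authors with Feature Extraction 11.0.1.1, hold background-subtracted signal intensity per spot and quality flags, which the files give as 0 or 1 (not a scale of level). A deposited table of log2 values, quantile normalized by the authors according to the methods, served as an alternative. The number of arrays limits the precision.

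Spots flagged as outliers were left out and spots of a probe averaged. Log2 processed signals were quantile normalized over the 8 arrays (limma 3.58.1, R 4.3.3). As in the study's methods, probes without annotation or with a mean log2 signal under 3 were removed. The brightest probe stood for each gene or locus, and 28876 features were fitted with lmFit and eBayes, siGATA2 minus siControl, with Benjamini-Hochberg adjustment over all of them. A call needed an adjusted p under 0.05 and a difference of at least 2-fold. The fit was also run on simulated data with noise drawn independently for each array. That run does not cover the likeness between arrays described above. Positions are those in the locus names (hg19), and probe sequences were not analysed here, so none are shown.

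Loci named are the 6 deepest falls and 6 steepest rises among called loci detected on all 8 arrays with groups that do not overlap, the 5 brightest, 2 called loci of each direction detected in 1 group only (none was lower), the 3 intervals with the widest strand difference and the densest run. Other runs, and NEAT1, MALAT1 and SNHG5, were named after their values were seen. The loci and lists were chosen with earlier results of these data known. Same-numbered arrays of the groups did not pair: their deviations from the group means correlated at 0.52, -0.30, 0.16 and 0.18. By the letter in the sample title, siGATA2 2 matches siControl 1 and siGATA2 4 matches siControl 3. Their deviations correlated at 0.77 and 0.28 across loci, and no fit paired arrays by letter. Alternatives covered scaling, background correction, filters, probe summary, test, blocks and left-out arrays. Averaging the siGATA2 pairs, blocking siGATA2 1 and 2 with siControl 1, and 2 settings restricted to the quieter arrays were chosen after seeing the data.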

Additional observations from a re-analysis of the deposited data

Results flagged for a closer look

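Among the loci named by rule and GATA2, each group of 4 arrays was examined for an array apart from its group, measured as the gap to the nearest array over the range of the group. This flagged 7 of 72 groups, and chance flags about 1 in 20 where groups are independent. Several of these loci overlap and all come from the same 8 arrays, so that rate is only a rough guide. SiControl 1 stood apart in 6 of the 7. It was high at chr11:65190190-65214674 (gap 0.996 of the range, 11.68 against 9.28 to 9.29), at chr11:65202405-65204229 (0.854, 8.93 against 6.87 to 7.17) and at the bright locus chr3:106619835-106630535 (0.929, 18.25 against 17.23 to 17.30). It was also high at chr6:86387046-86387917 (0.863, 8.28 against 7.05 to 7.22) and chr6:86387519-86388438 (0.885, 10.84 against 10.39 to 10.44). It was low at chr8:128301935-128324351 (0.851, 5.92 against 6.90 to 7.07). SiControl 4 stood apart at chr18:5232477-5246926 (0.880), where it read 18.20 against 18.25 on the other 3.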

How the results depend on the processing

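No locus called in 1 direction was called in the other under any of the 24 refits, and the lower loci were steadier than the higher ones. Against 116 lower and 93 higher loci, normexp background correction gave 61 and 40 and a 1.5-fold threshold 212 and 211. The number of higher loci also moved to 9 with spike-in scaling, 37 with only features well above background on all 8 arrays fitted, 146 with array weights, 58 with the slide row as a block and 51 with the siGATA2 pairs averaged. With a replicate block it was 154, beside 120 lower. Leaving out 1 array at a time gave 96 to 116 lower and 63 to 168 higher loci, the 168 without siControl 1. The number of loci detected was 2653 with all 8 arrays required and 4939 to 5103 with 1 array left out. The median log2 fold change of the loci was 0.30 with 75th-percentile scaling, -0.31 with spike-in scaling and 0.11 to 0.16 with 1 array left out. The difference of GATA2 ranged from 0.49 to 0.89 with 1 array left out, and blocking siGATA2 1 and 2 with siControl 1 gave 0.47 with a limma adjusted p of 0.0264, again not lower. The causes of these moves were not tested. Dim loci are limited by the background of siControl 1 and 3, and only signal, not transcript number, was measured.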
